A study of Homo sapiens with 20 samples.

Results

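The tight junction genes described here were *CXADR*, *F11R*, *CLDN1*, *CLDN3*, *CLDN4*, *CLDN7*, *CLDN11*, *OCLN* and *TJP1*, chosen by symbol from the table of tumor expression. All 9 were found among the 24196 genes of the table, and 7 of the 9 reached the mean of 0.5 FPKM that a gene needed for testing, against 12486 genes of the whole table. FPKM is a fragment count corrected for transcript length and for library depth. It does not correct for differences in composition between libraries, which limits comparisons with 1 library described below.

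The libraries were bulk RNA-seq of tumors that the human ovarian cancer line OVCAR8 formed in NSG mice, an immunodeficient strain that lacks B, T and NK cells. The 8 tumors fell into a PBS group of 4 and a gluconate group of 4, which shared the cell line and the host strain. The efficacy experiment described in the methods used mice aged 6 weeks, luciferase-labelled OVCAR8-*sgNC* cells (a non-targeting guide control line) placed in the ovarian fat pad, and weekly intraperitoneal PBS or sodium gluconate at 1 mg/kg for 35 days. The labels do not say whether the sequenced tumors came from that experiment. All tumors descended from 1 cell line. The comparison asks whether gluconate treatment went with a different level of these genes. The 12 libraries of cultured knockout and control cells in the series were not analysed here.

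Tight junctions seal neighboring epithelial cells to each other. Claudins and occludin are membrane proteins that form the strands and set which ions pass between cells, immunoglobulin-like adhesion proteins such as CXADR and F11R sit beside them, and scaffold proteins such as TJP1 (ZO-1) tie the strands to actin. CXADR is also the receptor of coxsackie B viruses and many adenoviruses. In ovarian carcinoma, claudin-3 and claudin-4 are known for high levels, although cell lines differ widely.

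The promoters are shown for the claudin with the highest level in these tumors, *CLDN1*, and for the claudin at the floor of detection, *CLDN7*, because the members differ from each other far more in level than between treatments. Promoter windows from RefSeq on GRCh38.p14, 250 bases before to 50 bases after a start site, were used for 7 of the 9 members, and those of *CXADR* and *F11R* were not used here. Capitals mark the E-box CAGGTG or, on the other strand, CACCTG, the site that the repressors SNAI1 and ZEB1 are known to bind in epithelial genes. The *CLDN1* window lay at chr3:190322397-190322696 on the minus strand, and the windows of the upstream and the downstream start site of *CLDN7* at chr17:7263164-7263463 and chr17:7262429-7262728 on the minus strand.
CLDN1: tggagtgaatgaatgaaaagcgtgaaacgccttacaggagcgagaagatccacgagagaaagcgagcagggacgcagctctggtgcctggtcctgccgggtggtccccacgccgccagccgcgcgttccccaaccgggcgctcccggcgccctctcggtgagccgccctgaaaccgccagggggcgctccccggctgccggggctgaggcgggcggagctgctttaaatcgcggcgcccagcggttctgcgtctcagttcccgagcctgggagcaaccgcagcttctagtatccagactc
CLDN7 upstream start: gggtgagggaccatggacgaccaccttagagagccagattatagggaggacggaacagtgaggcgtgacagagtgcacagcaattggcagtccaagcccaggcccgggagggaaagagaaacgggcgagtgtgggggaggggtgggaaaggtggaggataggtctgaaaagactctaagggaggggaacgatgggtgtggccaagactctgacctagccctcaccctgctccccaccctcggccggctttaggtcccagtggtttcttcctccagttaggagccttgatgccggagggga
CLDN7 downstream start: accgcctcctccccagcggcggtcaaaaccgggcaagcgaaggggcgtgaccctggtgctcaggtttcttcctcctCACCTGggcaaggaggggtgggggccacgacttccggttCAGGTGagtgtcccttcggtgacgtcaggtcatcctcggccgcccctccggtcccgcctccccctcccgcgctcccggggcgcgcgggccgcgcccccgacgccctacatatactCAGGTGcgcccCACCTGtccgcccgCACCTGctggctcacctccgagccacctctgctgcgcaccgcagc
The downstream *CLDN7* window held 5 E-boxes, and the upstream *CLDN7* window and the *CLDN1* window held 0. Of all 35116 RefSeq promoter windows of this length, 20.6% held at least 1. The window of *CLDN3* held 1, that of *CLDN4* and both of *CLDN11* held 0, those of *OCLN* held 1 and 2 in windows that overlap, and 1 of the 4 windows of *TJP1* held 1. A match is a match of letters only, and binding of a factor was not measured.

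The table gave whole fragments once the scaling was undone, and the library labelled PBS replicate 4 stood apart from the rest. It held 3953206 fragments, against 39325749 to 46551535 in the other 7 libraries, and 15514 genes above 0 against 19991 to 20251. For 58.0% of the 12486 genes tested its value lay below the range of the other 7 libraries, and for 13.7% above it. FPKM does not correct for such a shift of most genes. The scale factor from median ratios of FPKM was 0.843 for this library and 1.00 to 1.05 for the other 7. Comparisons of the groups are therefore given with all libraries and again without this one. Intervals quoted for single libraries are exact 95% Poisson intervals of the fragments and cover counting error only.

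The members spanned a wide range of levels, with *CLDN1* at the top and *CLDN7* next to nothing. Mean FPKM over the 8 libraries was 89.6 for *CLDN1*, 19.4 for *TJP1*, 6.95 for *F11R*, 3.49 for *CLDN11*, 2.20 for *OCLN*, 1.78 for *CXADR*, 0.944 for *CLDN4*, 0.338 for *CLDN3* and 0.00364 for *CLDN7*. The ranges over libraries did not overlap between *CLDN1* and *TJP1*, between *TJP1* and *F11R*, or between *CLDN3* and *CLDN7*. The ranges of the other neighbors in this order overlapped, although *F11R* lay above *CLDN11*, *CLDN11* above *OCLN* and *CXADR* above *CLDN4* in 8 of 8 libraries. *OCLN* lay above *CXADR* in 7 of 8 libraries and *CLDN4* above *CLDN3* in 7 of 8, the exception being PBS replicate 4 in both cases. *CLDN1* exceeded 97.3% of the 24196 genes in mean FPKM, *TJP1* 87.5% and *CXADR* 59.2%.

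**Figure D1:**
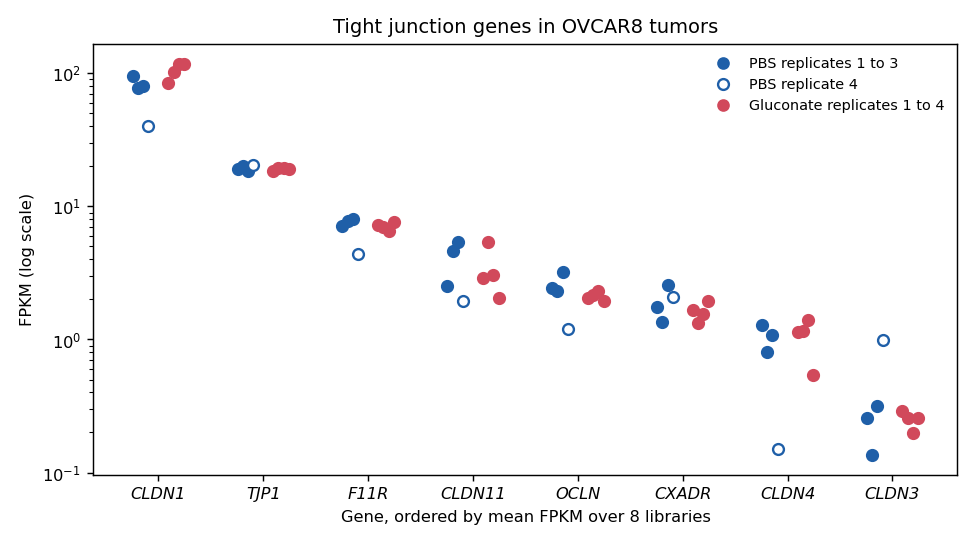
FPKM on a log scale of 8 of the 9 members, ordered by mean, with 1 point per tumor library (blue, PBS; red, gluconate; open circle, PBS replicate 4). *CLDN7*, with 0 fragments in 6 of 8 libraries, is not drawn; *CLDN1* runs from 39.9 to 119 FPKM and *TJP1* from 18.5 to 20.5, and PBS replicate 4 lies lowest for *CLDN1*, *F11R*, *CLDN11*, *OCLN* and *CLDN4*.

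Among the 7 members tested, only *CLDN1* had an unadjusted p under 0.05 in the comparison of gluconate with PBS, and no member passed after adjustment. That is 1 of 7 members, beside 4.62% of all genes tested at the same unadjusted threshold (577 of 12486, of which 391 were higher and 186 lower in gluconate). By limma with Benjamini-Hochberg adjustment 0 of 12486 genes had an adjusted p under 0.05, the smallest adjusted p being 0.740, and voom on the recovered fragments also gave 0, with 593 genes (4.75%) at an unadjusted p under 0.05, *CLDN1* among them as the 1 member. The median log2 fold change of the 7 members was -0.029, beside 0.069 over all genes tested, and 3 members were higher and 4 lower. These medians were -0.097 and -0.0033 without PBS replicate 4. The PBS and gluconate ranges overlapped for all 9 members, with and without PBS replicate 4, whereas 3.49% of genes tested had ranges that did not overlap with all libraries and 6.06% without that library. The two-sided exact permutation test doubles the smaller tail, so the smallest p it can give is 0.0286 for 4 against 4 and 0.0571 for 4 against 3, which cannot pass 0.05. With all 8 libraries no member had an exact permutation p under 0.05.

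*CXADR* encodes the coxsackievirus and adenovirus receptor and lies at 17512382 to 17593579 on the plus strand of chromosome 21 (GRCh38). Its FPKM was 1.76, 1.36, 2.54 and 2.09 in PBS replicates 1 to 4 and 1.65, 1.32, 1.55 and 1.95 in gluconate replicates 1 to 4. PBS replicate 3 was the highest library and gluconate replicate 2 the lowest, with PBS replicate 2 close to it, so the groups overlapped. The mean was 1.94 ± 0.504 FPKM (SD, n = 4) in PBS and 1.62 ± 0.261 (SD, n = 4) in gluconate. The log2 fold change was -0.22 (95% interval -0.68 to 0.24), with an unadjusted p of 0.307 and an adjusted p of 0.748 by limma, and the exact permutation p was 0.343. Without PBS replicate 4 it was -0.18 (-0.63 to 0.28). *CXADR* rested on 528 to 947 fragments in the 7 deeper libraries and on 77 in PBS replicate 4, where the counting interval was 1.65 to 2.61 FPKM. *CXADR* was the only tested member for which PBS replicate 4 lay within the range of the others.

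*F11R* encodes JAM-A, the junctional adhesion molecule that recruits polarity proteins to the forming junction (chromosome 1, 160995211 to 161021348, minus strand). Its FPKM was 7.10, 7.72, 7.99 and 4.39 in PBS replicates 1 to 4 and 7.20, 6.95, 6.58 and 7.68 in gluconate replicates 1 to 4. The 7 deeper libraries lay close together and PBS replicate 4 lay well below them, with a counting interval of 3.49 to 5.45 from 82 fragments. The log2 fold change of 0.10 (95% interval -0.30 to 0.50, limma adjusted p = 0.855) turned to -0.10 (-0.28 to 0.085) without that library. The ratio of *CXADR* to *F11R*, both in FPKM, ran from 0.176 in PBS replicate 2 to 0.476 in PBS replicate 4, and the 4 gluconate libraries lay between 0.190 and 0.254.

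*CLDN1*, a sealing claudin, carried most of the claudin signal and was the 1 member past the unadjusted threshold (chromosome 3, 190305701 to 190322475, minus strand). Its FPKM was 95.8, 77.0, 80.8 and 39.9 in PBS replicates 1 to 4 and 84.8, 102, 118 and 119 in gluconate replicates 1 to 4. Gluconate replicates 2 to 4 lay above every PBS library, while gluconate replicate 1 lay below PBS replicate 1. The mean was 73.4 ± 23.7 FPKM (SD, n = 4) in PBS and 106 ± 15.9 (SD, n = 4) in gluconate, a 1.50-fold difference on the log2(FPKM + 0.1) scale with a 95% interval of 1.02 to 2.19. The log2 fold change was 0.58, with a limma unadjusted p of 0.0396 and an adjusted p of 0.740, and the exact permutation p was 0.0571. PBS replicate 4, at 544 fragments with a counting interval of 36.6 to 43.4 FPKM, was the lowest library. Without it the log2 fold change was 0.32 (0.039 to 0.59), with an unadjusted p of 0.0295, an adjusted p of 0.802 and an exact permutation p of 0.114. The limma unadjusted p rose above 0.05 when PBS replicate 2 (0.0509), gluconate replicate 2 (0.0660), gluconate replicate 3 (0.0894) or gluconate replicate 4 (0.0928) was left out by itself. It was also above 0.05 with no filter on low values (0.0511) and with a replicate block (0.0595). The log2 fold change stayed between 0.32 and 0.74 over all libraries left out in turn.

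**Figure D2:**
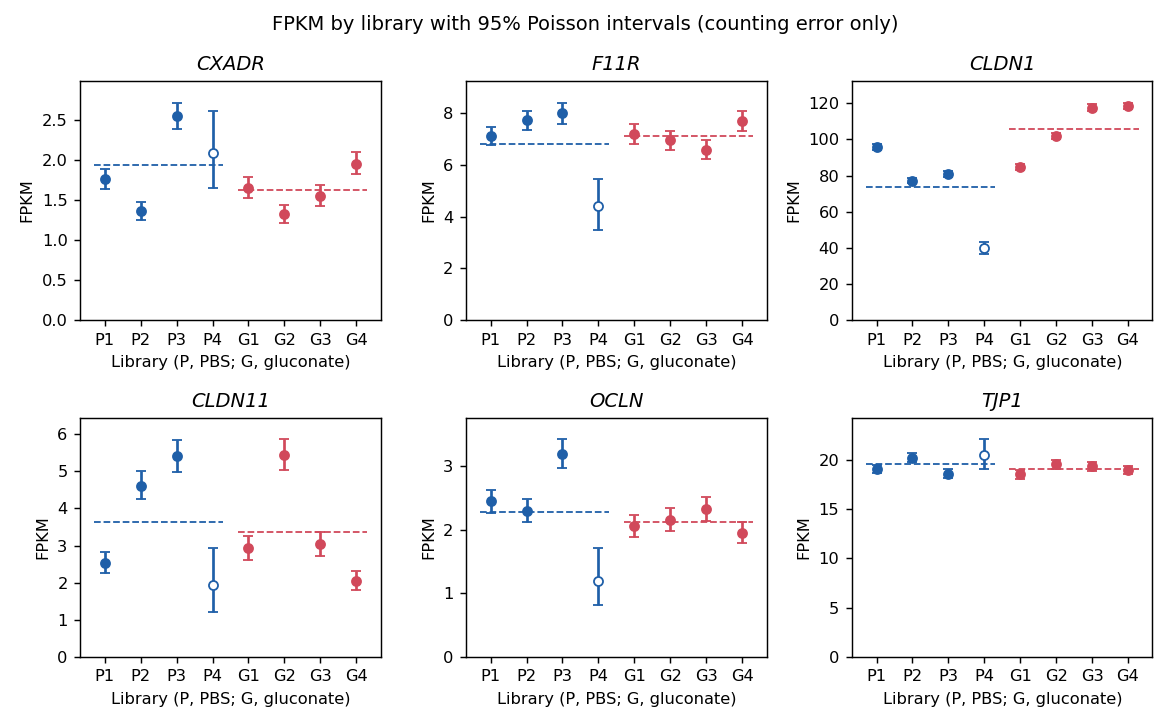
FPKM of 6 members in each library (P, PBS replicates 1 to 4; G, gluconate replicates 1 to 4), with 95% Poisson intervals of the fragments and a dashed line at each group mean of 4 libraries; each panel starts at 0 and has its own scale. *CLDN1* in gluconate replicates 2 to 4 lies at 102 to 119 FPKM, above all PBS libraries, and the other 5 members show group means close together or wide spread within a group.

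*CLDN1* made up 74.3% of the summed FPKM of the 18 claudins of the table in PBS replicate 4 and 80.0 to 89.7% in the other 7 libraries. The summed claudin FPKM was 53.7 in PBS replicate 4, 92.9 to 111 in PBS replicates 1 to 3 and 99.4 to 133 in gluconate. With *CLDN12*, a claudin at 7.82 FPKM on average, the share was 85.9 to 95.2%. Relative to the scaffold gene *TJP1*, *CLDN1* stood at 1.94 in PBS replicate 4, 3.81 to 5.02 in PBS replicates 1 to 3 and 4.57 to 6.24 in gluconate. 
*CLDN3* and *CLDN4*, neighbors on chromosome 7 (73768997 to 73770270, minus strand, and 73799542 to 73832693, plus strand), were both low. *CLDN3* stood at 0.258, 0.135, 0.315 and 0.993 FPKM in PBS replicates 1 to 4 and at 0.292, 0.257, 0.200 and 0.257 in gluconate replicates 1 to 4. PBS replicate 4 was the highest library, from 5 fragments with a counting interval of 0.322 to 2.32 FPKM, and the other 7 held 8 to 16 fragments. *CLDN3* lay below the mean needed for the fit, and its difference in mean log2(FPKM + 0.1) was -0.34 with all libraries (exact permutation p = 0.629) and 0.10 without PBS replicate 4 (exact permutation p = 0.800).

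*CLDN4* stood at 1.28, 0.811, 1.08 and 0.149 FPKM in PBS replicates 1 to 4 and at 1.14, 1.16, 1.40 and 0.538 in gluconate replicates 1 to 4. The lowest value, in PBS replicate 4, was 1 fragment with a counting interval of 0.00378 to 0.832 FPKM, and gluconate replicate 4 was the next lowest. The log2 fold change of 0.50 had a 95% interval of -0.67 to 1.67 (limma adjusted p = 0.770), and without PBS replicate 4 it was -0.046 (-0.68 to 0.59).

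*CLDN7*, a claudin of many simple epithelia (chromosome 17, 7259903 to 7263983, minus strand), had 2 fragments in all 8 libraries together, 1 each in PBS replicates 2 and 3. These amounted to 0.0135 and 0.0157 FPKM, and the other 6 libraries held 0. A count of 0 allows up to 3 fragments by a one-sided limit, which is lower than the upper end of the two-sided Poisson interval. This limit is an upper bound of 0.475 FPKM for PBS replicate 4 and of 0.0412 to 0.0478 for the other 5 libraries at 0. With 2 fragments in all, the exact permutation test could not pass 0.05 for this gene, and its p of 0.429 is the smallest these counts allow. *CLDN7* overlaps *ELP5* on the opposite strand, a gene at 10.6 FPKM on average, and whether counting used the strand is not given in the sources used here.

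*CLDN11*, the claudin known from myelin and from Sertoli cells of the testis, was the tested member with the largest spread on the log2 scale among the 7 deeper libraries (chromosome 3, 170418865 to 170454733, plus strand). Its FPKM was 2.54, 4.62, 5.41 and 1.94 in PBS replicates 1 to 4 and 2.92, 5.43, 3.03 and 2.05 in gluconate replicates 1 to 4. High libraries, near 5 FPKM, and low libraries, near 2, occurred in both groups, and the counting intervals of the deeper libraries were narrow beside this spread. The SD of log2(FPKM + 0.1) over the 7 deeper libraries was 0.54, larger than that of 97.6% of genes tested. The log2 fold change was -0.079 (95% interval -0.90 to 0.74, limma adjusted p = 0.944), and -0.33 (-1.05 to 0.39) without PBS replicate 4. Among markers of Sertoli cells and myelin, *SOX9* stood at 7.63 to 11.3 FPKM in PBS replicates 1 to 3, 10.6 in PBS replicate 4 and 8.44 to 11.0 in gluconate. *CNP* stood at 11.4 to 13.9, 10.2 and 12.8 to 15.0 FPKM in the same order. *MOG* and *DHH*, which define these cells, stayed at or below 0.0139 FPKM in every library. The part of these cells in the level of *CLDN11* was not tested.

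*OCLN* encodes occludin, a MARVEL-domain protein of the strands (chromosome 5, 69492292 to 69558104, plus strand). Its FPKM was 2.45, 2.30, 3.19 and 1.20 in PBS replicates 1 to 4 and 2.05, 2.15, 2.33 and 1.95 in gluconate replicates 1 to 4. PBS held both the highest library, replicate 3, and the lowest, replicate 4, and the gluconate libraries lay between them. The mean was 2.28 ± 0.822 FPKM (SD, n = 4) in PBS and 2.12 ± 0.159 (SD, n = 4) in gluconate, and the log2 fold change was -0.029 (95% interval -0.60 to 0.54, limma adjusted p = 0.973). Without PBS replicate 4, which held 30 fragments and a counting interval of 0.810 to 1.71 FPKM, it was -0.29 with an unadjusted p of 0.0485, an adjusted p of 0.802 by limma and an exact permutation p of 0.114. *OCLN* and *CLDN1* were then the 2 of 7 members past the unadjusted threshold, 1 lower and 1 higher, beside 6.18% of all genes tested (3.36% lower and 2.83% higher). The call on *OCLN* thus rested on leaving out 1 shallow library, and gluconate replicate 3 still lay above PBS replicate 2.

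*TJP1* encodes the scaffold ZO-1 (chromosome 15, 29699367 to 29968865, minus strand) and was nearly constant. Its FPKM was 19.1, 20.2, 18.6 and 20.5 in PBS replicates 1 to 4 and 18.5, 19.6, 19.3 and 19.0 in gluconate replicates 1 to 4. The SD of log2(FPKM + 0.1) over the 7 deeper libraries was 0.04, smaller than that of nearly all genes tested, of which 1.31% had a smaller one. The log2 fold change was -0.036 (95% interval -0.19 to 0.12, limma adjusted p = 0.858), an interval of 0.875 to 1.09 times the level in PBS. Without PBS replicate 4 it was -0.014 (-0.15 to 0.12). *TJP1* had the narrowest interval of the 7 members, from 724 to 8397 fragments per library.

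**Figure D3:**
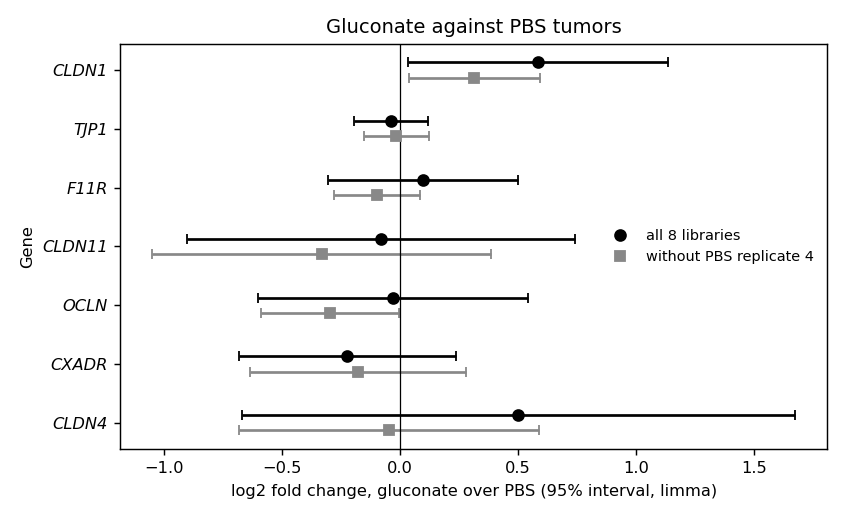
Log2 fold change of the 7 tested members, gluconate over PBS, with limma's 95% interval (black circles, all 8 libraries; gray squares, without PBS replicate 4). *CLDN1* lies above 0 in both fits (0.58 and 0.32), *OCLN* moves from -0.029 to -0.29, *CLDN4* from 0.50 to -0.046, and *TJP1* has the narrowest interval.

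PBS replicate 4 lay apart from the other libraries for most members. On the scale of log2(FPKM + 0.1), it lay below the mean of the other 7 libraries by more than the median gene for *CLDN4* (-2.17), *CLDN1* (-1.25), *OCLN* (-0.90), *CLDN11* (-0.82) and *F11R* (-0.72), the median difference over all genes tested being -0.28. *TJP1* (0.10) and *CXADR* (0.28) lay above the mean of the others. It was below the range of the other 7 for 5 of the 7 tested members, beside 58.0% of all genes tested. The summed FPKM of 10 fibroblast markers, of which 5 were tested and *COL1A1* was by far the highest, was 45.3 in the same library, 130 to 185 in PBS replicates 1 to 3 and 165 to 192 in gluconate. The 5 tested markers (*COL1A1*, *COL3A1*, *LUM*, *PDGFRB* and *FAP*) were all lowest in PBS replicate 4, with *LUM* at 1.70 FPKM there and 2.27 to 5.18 in the others and *PDGFRB* at 1.28 and 2.29 to 3.41. Of the other 5 markers, *COL1A2*, *DCN* and *PDGFRA* were at or below 0.0678 FPKM in all libraries. The summed FPKM of 10 granulosa and theca cell markers was 23.3 in PBS replicate 4, nearly all of it *FOXL2* at 21.5, against 4.03 to 7.08 in the others. *AMH*, the only other tested marker of that list, went the other way, at 1.40 FPKM there and 1.73 to 4.03 in the others. The sums for endothelial (11.3), myeloid (27.1) and mesothelial markers (123) in PBS replicate 4 compared with 12.0 to 20.6, 20.8 to 28.9 and 109 to 178 in the other libraries, in that order. In PBS replicate 4, *CD68* (25.7 FPKM) made up most of the myeloid sum and *MSLN* (116) most of the mesothelial sum. *EGFL7* (6.06) and *ROBO4* (4.01) made up most of the endothelial sum. Of the tested markers, *CALB2* (0.174) and *EGFL7* were lowest in that library, and *BNC1* (3.65) and *ITGAM* (1.36) highest. The part of these differences in the members' values was not tested. The host cells were mouse, and how mouse reads were treated is not given in the sources used here. Whether the marker values came from the tumor cells or from mouse reads was not tested. Fewer cells of a type and less RNA per cell also cannot be told apart in bulk tissue.

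**Figure D4:**
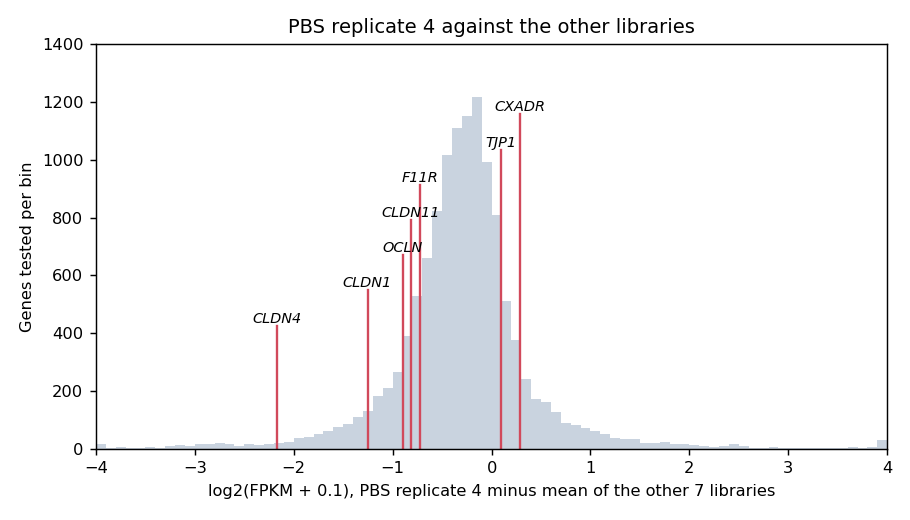
Histogram of the difference in log2(FPKM + 0.1) between PBS replicate 4 and the mean of the other 7 libraries for the 12486 genes tested, the outermost bins holding values beyond the axis; red lines mark the 7 tested members, and their heights carry no value. *CLDN4* (-2.17) and *CLDN1* (-1.25) lie in the left tail, and *TJP1* (0.10) and *CXADR* (0.28) to the right of the median of -0.28.

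The genes around these members were described with lists of the same junction. Of 58 further genes (claudins, other membrane proteins and plaque proteins), 50 were analysed here and 31 reached the mean for testing. Of these 31, 2 had an unadjusted p under 0.05, beside 4.62% of all genes tested in either direction. Both were lower in gluconate, the direction of 1.49% of all genes tested. The median log2 fold change was 0.052 beside 0.069 over all genes. The medians were -0.0053 and -0.0033 without PBS replicate 4. In that fit 2 of the 31 again passed, both lower, beside 6.18% of all genes in either direction and 3.36% lower. *PARD6B*, a polarity protein that binds atypical protein kinase C at the junction, stood at 1.34 to 1.43 FPKM in PBS replicates 1 to 3, 1.71 in PBS replicate 4 and 0.800 to 1.08 in gluconate. The groups did not overlap for *PARD6B* (log2 fold change -0.55, SE 0.164, unadjusted p = 0.00782, adjusted p = 0.740 by limma). *RAB3B*, a small GTPase of vesicle traffic, had 13.4 to 17.5 FPKM in PBS replicates 1 to 3, 20.8 in PBS replicate 4 and 11.0 to 13.7 in gluconate (log2 fold change -0.39, SE 0.147, limma unadjusted p = 0.0267, adjusted p = 0.740). Gluconate was thus lower for both, and for both PBS replicate 4 was the highest library. Without PBS replicate 4 the log2 fold changes were -0.48 for *PARD6B* (limma unadjusted p = 0.0081) and -0.26 for *RAB3B* (limma unadjusted p = 0.0401). With all libraries neither passed after adjustment.

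The membrane proteins of the junction other than the members were led by *LSR* (25.4 FPKM on average), a protein of tricellular contacts, *CLMP* (25.1), an adhesion molecule of the CXADR family, and *ESAM* (6.12). *CLMP* exceeded *CXADR* in every library, from 7.93 times in PBS replicate 3 to 20.6 times in PBS replicate 2. The plaque was led by *YBX3* (140 FPKM), the transcription factor ZONAB that binds ZO-1, *AMOTL2* (78.4), and *RAB13* (50.4), a GTPase of junction traffic. Among claudins that are not members, *CLDN12* (7.82), *CLDN15* (1.46) and *CLDN23* (0.698) led, and the other 10 analysed had a mean of at most 0.346 FPKM. None of these top genes had an unadjusted p under 0.05.

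Of 13 relatives and partners of CXADR, 5 were tested and 2 had an unadjusted p under 0.05, beside 4.62% of all genes tested in either direction. Both were higher in gluconate, the direction of 3.13% of all genes tested. *ITGB5*, an integrin chain that adenoviruses use to enter cells after binding CXADR, stood at 17.7 to 23.0 FPKM in PBS replicates 1 to 3, 14.3 in PBS replicate 4 and 21.4 to 28.4 in gluconate (log2 fold change 0.42, limma unadjusted p = 0.0179, adjusted p = 0.740). Its partner chain *ITGAV* stood at 34.2 to 42.7, 19.9 and 39.6 to 46.3 FPKM in the same order (log2 fold change 0.45, limma unadjusted p = 0.0479, adjusted p = 0.740). Both were lowest in PBS replicate 4, and both groups overlapped. Without that library the log2 fold changes were 0.30 for *ITGB5* and 0.23 for *ITGAV* (limma unadjusted p = 0.0236 and 0.0314). *LNX2*, a ligase that binds CXADR, then stood at -0.39 with a limma unadjusted p of 0.0148. Of the 5 tested, 2 were thus higher and 1 lower in that fit, beside 6.18% of all genes tested in either direction. The smallest limma adjusted p over all genes was 0.802 there. *DLG4* and *PICK1*, PDZ proteins that bind the tail of CXADR, had log2 fold changes of 0.12 and -0.026, and of 0.077 and -0.18 without PBS replicate 4.

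The epithelial markers showed which epithelial genes accompanied this junction profile. *EPCAM* (10.3 to 22.3 FPKM over the 8 libraries), *KRT8* (mean 846), *KRT18* (mean 695), *KRT7* (mean 282) and *PAX8* (32.4 to 50.7), a transcription factor of the Müllerian lineage, were present in all libraries. *CDH1*, the epithelial cadherin, reached at most 0.159 FPKM and *GRHL2*, a transcription factor of epithelial junction genes, at most 0.0926, the latter from PBS replicate 4. *KRT7* (log2 fold change 0.73, limma unadjusted p = 0.0201) and *MUC1* (0.35, unadjusted p = 0.0146 by limma) were the 2 of 8 tested markers past the unadjusted threshold, beside 4.62% of all genes tested in either direction. Both were higher in gluconate, the direction of 3.13% of all genes tested. Both had an adjusted p of 0.740. *KRT8* (-0.20, limma unadjusted p = 0.110) and *KRT18* (-0.33, limma unadjusted p = 0.0843) were the 2 of 8 tested markers that were lower in gluconate. Without PBS replicate 4 the log2 fold changes were 0.48 for *KRT7*, 0.34 for *MUC1*, -0.21 for *KRT8* and -0.31 for *KRT18*.

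By likeness of pattern over the 7 deeper libraries, measured as the mean absolute difference of centered log2(FPKM + 0.1), the genes nearest to *CXADR* were *ICMT-DT* (0.0588), *LMO7* (0.0620) and *CD59* (0.0637). The typical gene stood at 0.257 from *CXADR*, whose own mean absolute deviation was 0.228. The genes nearest to *CLDN11* were *LINC02870* (0.123), *TFCP2* (0.141) and *RIPPLY2* (0.148), beside 0.463 for the median gene and a deviation of 0.467 of *CLDN11* itself. These are descriptions over 7 libraries among 12486 genes, and the nearest gene of any pattern is close by selection.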

How the data were processed

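The 8 tumor libraries were polyA-selected and sequenced in pairs, per the labels. The authors deposited FPKM values on GRCh38 (submitters' processing notes) for 24196 genes. The aligner, counter, annotation, strand use, filters and treatment of mouse reads are not given in the sources used here. Columns are headed C or T with a number, which were read as PBS and gluconate because the study's volcano plot of gluconate against PBS divides T by C. The legend of that plot speaks of treated OVCAR8 cells, whereas the labels name tumors. Among the groups of the series, only the tumor groups have 4 libraries each. No column was left unused (0). All FPKM values came out as whole fragments within 0.01 (100% of values), so depth per library was recovered, 3953206 to 46551535 fragments. The precision of low genes is limited by these counts.

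Log2(FPKM + 0.1) was compared between groups with R 4.3.3 and limma 3.58.1 (linear fit and trended eBayes, no block) over the 12486 genes with a mean of at least 0.5 FPKM, with Benjamini-Hochberg adjustment, and by two-sided exact permutation tests per gene (scipy 1.17.1). A fold change on this scale understates the change of low genes. The study states an unpaired comparison of groups, for the whole paper only. Nothing in the labels says whether libraries are separate animals, so p-values measure the spread between these libraries. Alternatives were pseudocounts of 1 and 0.01, no filter, a mean of at least 1 FPKM, median-ratio and quantile scaling, a replicate block, voom on the recovered fragments and each library left out. The fitting code was also run on simulated counts, drawn from a common mean profile at the depths of these libraries. The simulation lacked the shift of PBS replicate 4, so it says nothing about how the fits handle that shift.

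Members and gene lists were chosen with earlier results of these data known. The genes named are the 9 members, genes of the junction and CXADR lists with an unadjusted p under 0.05, the 3 highest genes of each list and the 3 genes nearest to *CXADR* and to *CLDN11*. Other genes named, *LNX2*, *DLG4*, *PICK1*, *EPCAM*, *PAX8*, *CDH1*, *GRHL2*, *MOG*, *DHH*, *MUC1*, *COL1A2*, *COL3A1*, *FAP*, *DCN*, *PDGFRA*, *CALB2* and *ELP5*, were chosen after their values were seen. Positions are from GENCODE 29, and promoters from RefSeq (GRCh38.p14). Pseudogenes of *CXADR* and *OCLN* could share their reads. Python 3.11.15, numpy 2.4.6, pandas 2.3.3 and matplotlib 3.10.9 were used. Of the genes in the marker lists, 1 is not reported here.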

Additional observations from a re-analysis of the deposited data

Results flagged for a closer look

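The depth of PBS replicate 4, 3953206 fragments, lay far from the 39895393 to 46551535 fragments of PBS replicates 1 to 3. It was the 1 library far from its group among 24 groups of 4 values examined (the level of each member, the depth, the summed claudin FPKM and the ratio of *CLDN1* to *TJP1*, in both treatment groups), where chance alone gives about 5% of groups such a distant value. None of the members' levels was marked in this way.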

How the results depend on the processing

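The number of genes at an unadjusted p under 0.05 was 577, became 1028 with no filter on low values, and ranged from 267 to 1214 when 1 library was left out. The count of members past that threshold, 1 of 7, was 0 with no filter and 0 with a replicate block, 2 with voom without PBS replicate 4 (chosen after seeing the data), and 0 to 2 when 1 library was left out. It was 2 without PBS replicate 4, and 0 without PBS replicate 2 or gluconate replicate 2, 3 or 4. For the other tight junction genes the count of 2 became 1 with the replicate block and ran from 1 to 3 over libraries left out, being 1 without gluconate replicate 2 or 4. The exact permutation test called 0 members with all libraries and with pseudocounts of 1 and 0.01. With a library left out it cannot give a p under 0.0571, so its 0 to 0 calls there say nothing about stability. The block paired nothing in the data, as same-numbered libraries had correlations of -0.178, 0.0836, 0.165 and -0.0575 across genes, so the numbers were not read as pairs; *CLDN1* had p = 0.0595 with the block (limma) and 0.0511 with no filter.

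Directions turned for *F11R* (0.10 to -0.039 with voom and to -0.096 with voom without PBS replicate 4; -0.10 to 0.19 over libraries left out), *CLDN4* (0.50 to -0.062 with voom without PBS replicate 4; -0.046 to 0.78 over libraries left out), *CLDN11* (-0.33 to 0.15), *OCLN* (-0.29 to 0.15) and *CLDN3* (-0.64 to 0.10), none of which had passed the threshold with all libraries. *CXADR* (-0.37 to -0.085), *CLDN1* (0.32 to 0.74) and *TJP1* (-0.061 to -0.014) kept their direction over libraries left out and under every other setting. Of 128 log2 values recomputed, 108 kept direction and side of the threshold and 12 turned; the cause was not tested. Counting error was widest for *CLDN7* (at most 1 fragment per library), *CLDN3* (at most 16) and, in PBS replicate 4, *CLDN4* (1).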
